A study of Mus musculus with 4 samples.

Results

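DNA replication and the supply of its building blocks were followed through 49 genes, taken from a list of origin, replisome and deoxynucleotide genes. The files name 40213 gene symbols, and all 49 listed symbols were among them. The rule names genes by function and sets no threshold on measured values, but the list was drawn up with earlier results of these data known. RNA was sequenced from RAW264.7, a line of mouse macrophages derived from a virus-induced tumour, which divides in culture. The comparison had 2 groups, cells kept 48 h with the material titled CuNZ@Gel (2 libraries) and cells titled Gel (2 libraries). The groups come from the sample titles, the labels' treatment text speaks of CuNZ@Gel alone, and CuNZ is not spelled out there. No untreated cells were among these samples, all 4 libraries come from 1 cell line, and nothing in the labels says that the libraries of a group were separate cultures. The p-values therefore rest on the spread within pairs of libraries, part or all of which may be technical.

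Replication starts at origins, where the origin recognition complex with the loaders Cdc6 and Cdt1 places the MCM helicase on DNA in G1. In S phase the kinase Cdc7 with its partner Dbf4, together with Cdc45 and the GINS complex, turns that helicase on, and the polymerases, the sliding clamp and its loader copy the strands. Deoxynucleotides come from ribonucleotide reductase and the thymidylate enzymes, and chromatin assembly factors place histones on the new DNA. Most of these genes are transcribed as cells pass from G1 into S phase, under E2F transcription factors held in check by the retinoblastoma protein family.

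Promoters are shown because E2F binding is the best known common control of these genes. The tables used here hold RefSeq promoter windows, from 250 bases before to 50 bases after a transcription start, for 42 of the 49 genes (build GRCm38.p6). The windows were searched on both strands for the E2F-type letters TTTCCCGC, TTTGGCGC, TTTCGCGC and TTTGCCGC, where matches may overlap. At least 1 match was found for 15 of these 42 genes (35.7%), and for 2.60% of all 27025 genes with a window. The following 4 windows belong to genes of the origin loading step, the helicase and the clamp loader, read 5′ to 3′ with matched letters in capitals. They are Cdc6 (chr11:98907901-98908200, plus strand), Cdt1 (chr8:122567765-122568064, plus strand), Mcm5 (chr8:75109259-75109558, plus strand) and Rfc3 (chr5:151651159-151651458, minus strand).
Cdc6: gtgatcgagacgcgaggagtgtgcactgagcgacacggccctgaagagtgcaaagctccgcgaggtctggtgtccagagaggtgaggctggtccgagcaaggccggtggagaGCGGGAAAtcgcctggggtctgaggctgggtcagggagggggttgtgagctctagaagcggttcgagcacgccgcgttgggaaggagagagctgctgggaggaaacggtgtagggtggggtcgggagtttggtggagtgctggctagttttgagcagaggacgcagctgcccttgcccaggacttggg
Cdt1: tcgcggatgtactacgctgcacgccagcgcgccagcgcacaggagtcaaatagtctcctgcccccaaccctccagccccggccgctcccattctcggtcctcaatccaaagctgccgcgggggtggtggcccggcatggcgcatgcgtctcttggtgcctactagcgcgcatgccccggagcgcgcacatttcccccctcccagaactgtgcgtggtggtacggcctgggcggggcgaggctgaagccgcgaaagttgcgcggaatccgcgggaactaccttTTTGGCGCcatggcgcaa
Mcm5: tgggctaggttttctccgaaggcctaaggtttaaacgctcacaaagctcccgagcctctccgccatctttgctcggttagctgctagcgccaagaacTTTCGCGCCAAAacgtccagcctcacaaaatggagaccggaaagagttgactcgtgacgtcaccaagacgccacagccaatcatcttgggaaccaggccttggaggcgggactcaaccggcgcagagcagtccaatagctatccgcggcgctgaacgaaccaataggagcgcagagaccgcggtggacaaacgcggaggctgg
Rfc3: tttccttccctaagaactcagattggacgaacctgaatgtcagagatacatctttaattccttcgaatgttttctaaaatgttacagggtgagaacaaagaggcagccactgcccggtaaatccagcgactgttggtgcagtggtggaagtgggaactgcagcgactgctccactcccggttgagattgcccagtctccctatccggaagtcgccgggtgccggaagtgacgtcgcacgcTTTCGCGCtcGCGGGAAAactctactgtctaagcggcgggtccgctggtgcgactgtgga
In Cdc6 the match began 138 bases before the start, and in Cdt1 it began 32 bases after it. Mcm5 held overlapping matches on both strands, which began 153 and 149 bases before the start, and in Rfc3 the matches lay at the start itself. A match in these letters is a description of the sequence and not a measured binding site. Of the 15 genes with a match, 10 were lower in CuNZ@Gel, 1 was higher and 4 did not pass the test, with a median log2 change of -0.29. The 1 higher gene was Cdc6, which no longer passed once transcript length and GC content were corrected for (0.24). Of the 27 genes whose windows held no match, 15 were lower, 3 were higher and 9 did not pass, with a median of -0.30. Over all tested genes 34.8% were lowered and 32.2% raised.

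Most replication genes had lower transcript levels in CuNZ@Gel. Of the 49 genes, 30 fell, 6 rose and 13 did not pass the test, and all 49 had been expressed highly enough to be tested. Levels are given as scaled CPM, the CPM of a gene divided by 1 further factor per library, as the deposited log2(scaled CPM + 1) values hold it. A gene is said to have risen or fallen where limma gave it a Benjamini-Hochberg adjusted p under 0.05 over all 11588 tested genes. On that measure 67.1% of all tested genes passed in either direction, against 36 of the 49 (73.5%). Of all tested genes 34.8% were lowered and 32.2% raised, against 61.2% and 12.2% of the 49. Their median log2 change was -0.30, against -0.03 for all tested genes. No overlap between the groups was seen for 43 of the 49 genes, and for 83.2% of all tested genes. Both CuNZ@Gel libraries lay below both Gel libraries for 35 genes and above them for 8, where the shares over all tested genes were 43.5% and 39.8%. The remaining 6 genes overlapped between the groups. Without Gel replicate 1, the count of raised genes was 3 in place of 6. The changes were moderate, and the log2 changes of the 49 ran from -1.15 to 0.49. A value after ± beside a log2 change is the SE of the fit. With the test set against a minimum change of 1.5-fold, 5 genes still fell, Rfc4, Pold2, Cdt1, Prim1 and Rfc2, and none rose, where 8.11% of all tested genes were lowered and 8.76% raised. By the same limma test none rose at an unadjusted p under 0.05 either. In bulk RNA, fewer cells in S phase and less RNA per cell cannot be told apart.

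**Figure D1:**
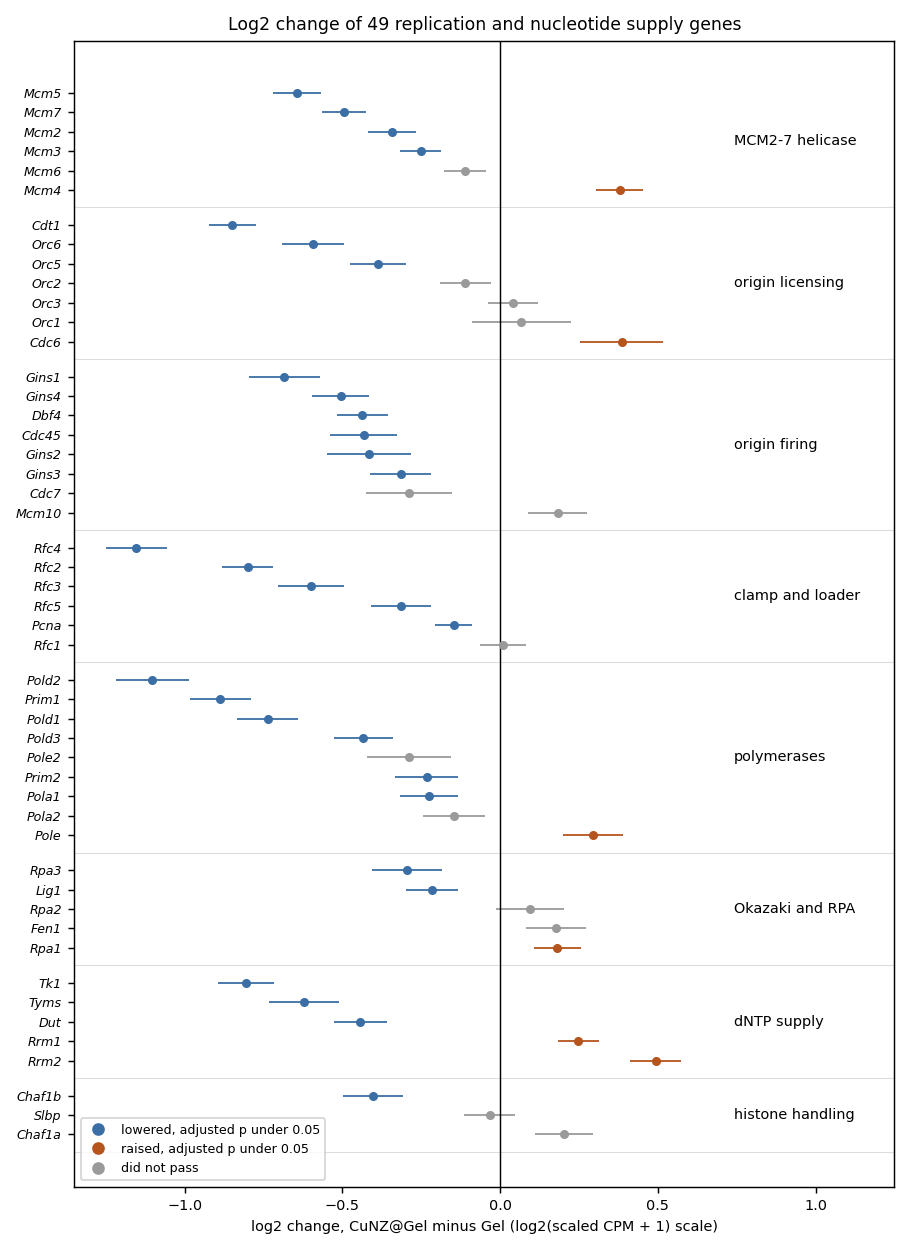
Log2 change of each of the 49 genes, CuNZ@Gel minus Gel, on the log2(scaled CPM + 1) scale (x axis), with genes in rows by role; points are limma estimates from 2 libraries a group and bars are ± 1 SE. Blue points (30 genes) fell, orange points (6 genes) rose and grey points (13 genes) did not pass, and the clamp loader and polymerase rows hold the lowest values, Rfc4 at -1.15 and Pold2 at -1.10.

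The summed level of the 49 genes was 2366 and 2368 scaled CPM in the CuNZ@Gel libraries, against 2790.0 and 2791 in the Gel libraries. As a share of all reads, without the further factor, this was 0.252% and 0.253% in CuNZ@Gel and 0.261% and 0.261% in Gel. The size of the summed decrease thus depended on how libraries were scaled. With libraries scaled by total reads only, the median log2 change of all tested genes moved to 0.15, and 20 of the 49 genes were lowered and 12 raised (24.7% and 43.4% of all tested genes). The median of the 49 was then -0.12, below the 0.15 of all tested genes. As deposited it was -0.30, below the -0.03 of all tested genes. Recovered library totals were 13717000 to 14886000 reads, and libraries of a group correlated across genes at a Pearson r of 0.995. Libraries of 1 group differed by more than sampling noise, with a mean chi-square per gene of 4.13 in CuNZ@Gel and 3.53 in Gel, against 116 to 141 between groups. The cells carried macrophage transcripts: all 10 macrophage markers passed the expression filter, with summed levels of 9373 and 9155 scaled CPM in CuNZ@Gel and 6056 and 6222 in Gel. Of these sums Lyz2 alone held 6000 and 5776 in CuNZ@Gel and 3004 and 3155 in Gel, and the other markers moved in both directions. The 13 markers of fibroblasts, lymphocytes, epithelium and endothelium summed to 4.16 and 3.62 scaled CPM in CuNZ@Gel and 1.01 and 1.48 in Gel, and Cd3e was at 0 in all 4 libraries.

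**Figure D2:**
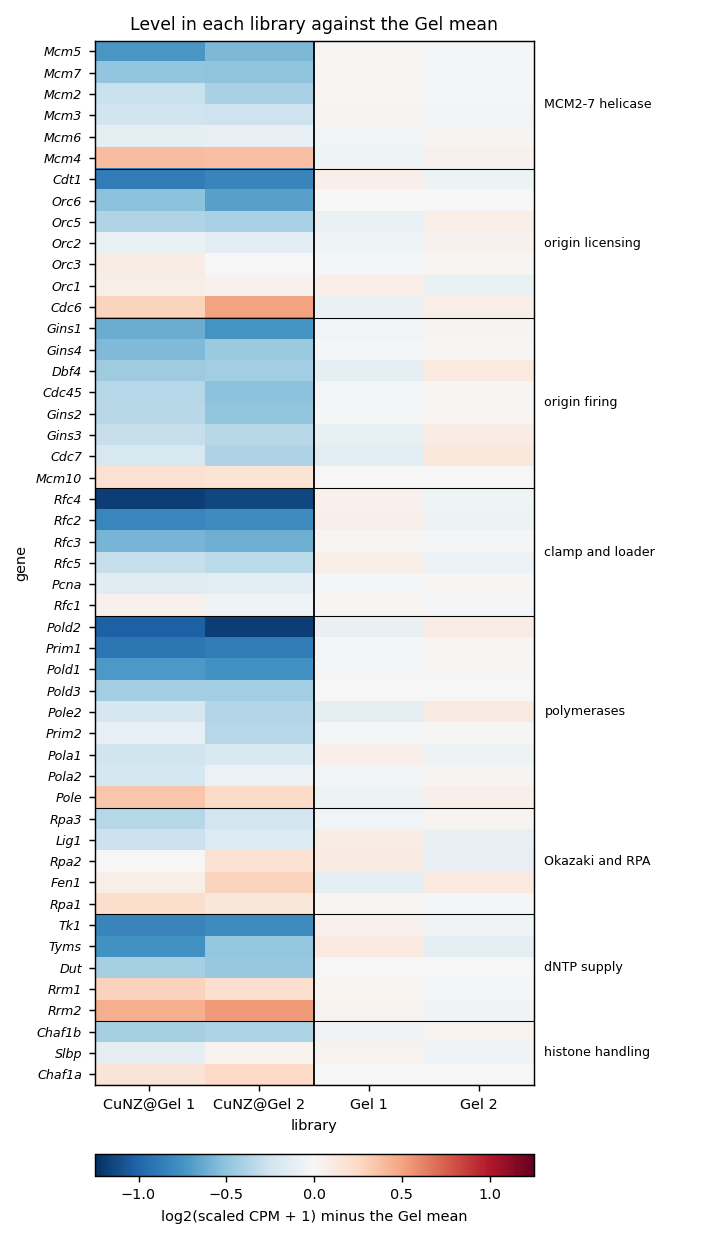
Level of each of the 49 genes in each library as log2(scaled CPM + 1) minus the mean of the Gel libraries (colour scale, blue lower and red higher), with CuNZ@Gel libraries left of Gel libraries and genes in rows by role. The CuNZ@Gel columns are blue in most rows, and the rows of the 6 genes that rose, Mcm4, Cdc6, Pole, Rpa1, Rrm1 and Rrm2, are red in both; the pale red rows Mcm10 and Chaf1a did not pass.

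The MCM helicase, a ring of 6 related subunits that unwinds DNA ahead of the fork, did not move as a unit. Of its 6 genes 4 fell, 1 rose and 1 did not pass. These were 66.7% lowered and 16.7% raised, against 34.8% and 32.2% of all tested genes. Mcm5 had 63.6 and 71.5 scaled CPM in the CuNZ@Gel libraries, against 107 and 105 in the Gel libraries (log2 change -0.64 ± 0.075, adjusted p = 1.76e-07). Mcm7 had 79.2 and 78.8 scaled CPM in the CuNZ@Gel libraries, against 113 and 111 in the Gel libraries (log2 change -0.50 ± 0.069, adjusted p = 2.11e-06). Mcm2 had 64.0 and 58.3 scaled CPM in the CuNZ@Gel libraries, against 79.2 and 76.2 in the Gel libraries (log2 change -0.34 ± 0.077, adjusted p = 5.40e-04). In each of these subunits the CuNZ@Gel libraries lay below the Gel libraries with no overlap. Mcm4, a subunit of the same ring, went the other way: 83.9 and 83.6 scaled CPM in the CuNZ@Gel libraries, against 61.9 and 66.6 in the Gel libraries (log2 change 0.38 ± 0.074, adjusted p = 1.37e-04). Mcm3 fell less (-0.25, adjusted p = 0.00162), and Mcm6 was at -0.11 (adjusted p = 0.135). The Mcm6 call rested on the treatment of the values. Corrected for transcript length and GC content, Mcm6 passed as lowered (-0.25), which made 5 of the 6 subunit genes lowered. Mcm4 was still raised there (0.31). With libraries scaled by total reads only, Mcm6 was at 0.08 and did not pass. Divided by the length of the longest GENCODE vM21 transcript, Mcm4 had a mean level of 23.3 scaled CPM per kb in CuNZ@Gel and 17.9 in Gel, where it was the lowest of the 6 subunits. Mcm5 had 19.97 in CuNZ@Gel and 31.3 in Gel on that scale. Mcm2 and Mcm3 did not pass with libraries scaled by total reads only (-0.16 and -0.06), whereas Mcm4, Mcm5 and Mcm7 did.

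Genes of origin recognition and licensing were split, with 3 of 7 lowered and 1 raised (42.9% and 14.3%). Over all tested genes 34.8% were lowered and 32.2% raised, so the lowered share was near that of all genes. Cdt1, the factor that brings the MCM ring to origins, had 61.8 and 63.9 scaled CPM in the CuNZ@Gel libraries, against 119.5 and 109 in the Gel libraries (log2 change -0.85 ± 0.074, adjusted p = 2.13e-09). Its partner Cdc6, an ATPase of the same loading step, had 13.9 and 16.4 scaled CPM in the CuNZ@Gel libraries, against 10.6 and 12.0 in the Gel libraries (log2 change 0.39 ± 0.13, adjusted p = 0.0137). The 2 loaders thus moved in opposite directions, although Cdc6 no longer passed when CuNZ@Gel replicate 2 or Gel replicate 1 was left out, or once transcript length and GC content were corrected for (0.24). Orc6, the smallest origin recognition subunit, had 25.4 and 22.6 scaled CPM in the CuNZ@Gel libraries, against 36.5 and 36.8 in the Gel libraries (log2 change -0.59 ± 0.098, adjusted p = 1.93e-05). Orc5, an ATPase-fold subunit, had 36.7 and 36.0 scaled CPM in the CuNZ@Gel libraries, against 45.1 and 50.9 in the Gel libraries (log2 change -0.39 ± 0.089, adjusted p = 6.46e-04). Both lay lower in both CuNZ@Gel libraries. The other subunits among the 49 did not pass: Orc1 was at 0.07 (adjusted p = 0.719), Orc2 at -0.11 (adjusted p = 0.241) and Orc3 at 0.04 (adjusted p = 0.663). Orc2 passed as lowered after the length and GC correction (-0.18), and Orc3 as raised with total reads only (0.23). Orc1 and Orc3 overlapped between the groups. Orc4, a subunit gene outside the 49 and named after its values were seen, had 54.1 and 58.0 scaled CPM in the CuNZ@Gel libraries, against 38.4 and 38.5 in the Gel libraries (log2 change 0.53 ± 0.084, adjusted p = 1.04e-05), and it also rose with total reads only (0.72) and after the length and GC correction (0.40). Exons of Orc2 overlap those of Nif3l1 on the opposite strand over 1150 bases in GENCODE vM21, and the use of strand in counting is not given in the sources used here.

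For helicase activation and origin firing, 6 of 8 genes fell and 2 did not pass. These were 75% lowered and 0% raised, against 34.8% and 32.2% of all tested genes. Gins1, a GINS subunit, had 15.5 and 14.0 scaled CPM in the CuNZ@Gel libraries, against 23.8 and 24.8 in the Gel libraries (log2 change -0.68 ± 0.11, adjusted p = 1.86e-05). Gins4 had 29.1 and 30.9 scaled CPM in the CuNZ@Gel libraries, against 42.6 and 43.4 in the Gel libraries (log2 change -0.51 ± 0.09, adjusted p = 4.73e-05). Dbf4, the regulatory partner of the Cdc7 kinase, had 65.2 and 65.9 scaled CPM in the CuNZ@Gel libraries, against 82.0 and 96.8 in the Gel libraries (log2 change -0.44 ± 0.081, adjusted p = 6.97e-05). Neither subunit nor Dbf4 overlapped between the groups, and Gel replicate 2 was the highest library for Dbf4. Cdc45, which joins MCM and GINS in the active helicase, had 20.9 and 18.7 scaled CPM in the CuNZ@Gel libraries, against 26.5 and 27.5 in the Gel libraries (log2 change -0.43 ± 0.11, adjusted p = 0.00124). The other GINS genes, Gins2 and Gins3, fell by 0.42 and 0.32 on the log2 scale, and neither passed with total reads only (-0.24 and -0.13). Gins2 also no longer passed without CuNZ@Gel replicate 2, and Gins3 without Gel replicate 2. Gins2 shares 2758 exonic bases with Gse1 on the opposite strand. Cdc7 itself was at -0.29 (adjusted p = 0.0671), and it passed as lowered after the length and GC correction (-0.38). Mcm10, which helps the helicase start, was at 0.18 (adjusted p = 0.0893), and it passed as raised with total reads only (0.37).

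The clamp loader gene Rfc4 showed the largest decrease of all 49 genes, close to that of Pold2 (-1.15 and -1.10). The replication factor C complex opens the PCNA ring and closes it around DNA, and 4 of its 5 genes fell. With Pcna, 5 of 6 genes fell (83.3%) and 0 rose, where 34.8% of all tested genes were lowered and 32.2% raised. Rfc4 had 18.9 and 19.4 scaled CPM in the CuNZ@Gel libraries, against 45.5 and 42.3 in the Gel libraries (log2 change -1.15 ± 0.097, adjusted p = 1.28e-09). Rfc2 had 40.2 and 40.8 scaled CPM in the CuNZ@Gel libraries, against 74.4 and 68.1 in the Gel libraries (log2 change -0.80 ± 0.081, adjusted p = 2.33e-08). Rfc3 had 18.2 and 17.8 scaled CPM in the CuNZ@Gel libraries, against 28.2 and 27.5 in the Gel libraries (log2 change -0.60 ± 0.1, adjusted p = 3.66e-05). These 3 small subunits each had both CuNZ@Gel libraries close together and well below the Gel libraries. Rfc5, the remaining small subunit, had 29.3 and 28.4 scaled CPM in the CuNZ@Gel libraries, against 38.2 and 34.2 in the Gel libraries (log2 change -0.32 ± 0.096, adjusted p = 0.00636), and it did not pass without Gel replicate 1 or with total reads only (-0.13). The large subunit gene Rfc1 did not pass: it had 83.3 and 77.7 scaled CPM in the CuNZ@Gel libraries, against 81.3 and 78.7 in the Gel libraries (log2 change 0.01 ± 0.073, adjusted p = 0.927). Rfc1 was at -0.18 after the length and GC correction (adjusted p = 0.0160) and at 0.20 with total reads only (adjusted p = 0.0230), so its direction rested on the scaling. Pcna, the clamp, had by far the highest level per length of the 49 genes, with means of 180 scaled CPM per kb in CuNZ@Gel and 199 in Gel. It had 271 and 274 scaled CPM in the CuNZ@Gel libraries, against 298 and 306 in the Gel libraries (log2 change -0.15 ± 0.059, adjusted p = 0.0327), and this small decrease did not pass when any 1 of the 4 libraries was left out, after the length and GC correction, or with total reads only (0.04). Rfc2 shares 952 exonic bases with Lat2 on the opposite strand, Rfc5 shares 499 with Wsb2 and Rfc4 shares 194 with Eif4a2, also on opposite strands. Exons of 13 of the 49 genes overlap those of another protein-coding gene, and 4 of these overlap by 500 bases or more.

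Of 9 polymerase and primase genes 6 fell and 1 rose (66.7% and 11.1%, against 34.8% and 32.2% of all tested genes). The 3 genes of the delta complex among the 49 were among those that fell; this complex extends the lagging strand. Pold2, its second subunit, had 14.1 and 12.6 scaled CPM in the CuNZ@Gel libraries, against 27.8 and 31.8 in the Gel libraries (log2 change -1.10 ± 0.11, adjusted p = 3.47e-08). Pold1, the catalytic subunit, had 22.6 and 22.0 scaled CPM in the CuNZ@Gel libraries, against 37.3 and 38.2 in the Gel libraries (log2 change -0.74 ± 0.096, adjusted p = 8.66e-07). Pold3 had 27.4 and 27.5 scaled CPM in the CuNZ@Gel libraries, against 37.4 and 37.4 in the Gel libraries (log2 change -0.43 ± 0.093, adjusted p = 3.23e-04). All 3 were lower in both CuNZ@Gel libraries than in either Gel library. Prim1, the catalytic subunit of the primase that lays down RNA primers, had 20.4 and 20.9 scaled CPM in the CuNZ@Gel libraries, against 38.3 and 39.7 in the Gel libraries (log2 change -0.89 ± 0.097, adjusted p = 6.77e-08). Its partner Prim2 fell by 0.23 on the log2 scale, and the catalytic polymerase alpha gene Pola1 by 0.22. Neither passed with total reads only (-0.05 and -0.04). Prim2 did not pass after the length and GC correction, nor without CuNZ@Gel replicate 2, Gel replicate 1 or Gel replicate 2, and Pola1 did not pass without CuNZ@Gel replicate 1 or Gel replicate 1. Pole, the catalytic gene of polymerase epsilon, which copies the leading strand, had 37.2 and 34.4 scaled CPM in the CuNZ@Gel libraries, against 27.8 and 30.3 in the Gel libraries (log2 change 0.29 ± 0.096, adjusted p = 0.0104). Pole lost its call without CuNZ@Gel replicate 1 or Gel replicate 1, and after the length and GC correction it was at 0.01. Pole2 and Pola2 were at -0.29 and -0.15 and did not pass (adjusted p = 0.0607 and 0.194). The other epsilon genes, Pole3 and Pole4, are outside the 49 and were named after their values were seen. They were lowered (-0.26 and -0.30, adjusted p = 0.0175 and 0.00611), but neither passed with total reads only (-0.07 and -0.11), and Pole3 did not pass without Gel replicate 1 or after the length and GC correction (-0.12).

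Strand maturation and single-strand binding genes moved little. Rpa3, the smallest subunit of replication protein A, had 17.4 and 18.9 scaled CPM in the CuNZ@Gel libraries, against 21.9 and 23.1 in the Gel libraries (log2 change -0.30 ± 0.11, adjusted p = 0.0229). Lig1, the ligase that seals Okazaki fragments, had 56.8 and 60.8 scaled CPM in the CuNZ@Gel libraries, against 73.0 and 64.2 in the Gel libraries (log2 change -0.22 ± 0.082, adjusted p = 0.025). Rpa1, the large subunit that binds single-stranded DNA, had 77.0 and 73.0 scaled CPM in the CuNZ@Gel libraries, against 67.2 and 64.8 in the Gel libraries (log2 change 0.18 ± 0.075, adjusted p = 0.038). None of these 3 calls held in every fit with 1 library left out: Rpa3 lost it without CuNZ@Gel replicate 1 or Gel replicate 2, Lig1 without CuNZ@Gel replicate 1 or Gel replicate 1, and Rpa1 without CuNZ@Gel replicate 1, Gel replicate 1 or Gel replicate 2. After the length and GC correction the log2 changes of Rpa3, Lig1 and Rpa1 were -0.07, -0.12 and 0.0045, and none passed. Fen1, the flap nuclease, and Rpa2 were at 0.18 and 0.10 (adjusted p = 0.106 and 0.442), and both passed as raised with that correction (0.35 and 0.30) and with total reads only (0.36 and 0.28).

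In deoxynucleotide supply the reductase and the thymidylate enzymes went opposite ways, and all 5 genes passed, where 67.1% of all tested genes passed. Of the 5, 60% were lowered and 40% raised, against 34.8% and 32.2% of all tested genes. Rrm2, the small subunit of ribonucleotide reductase that limits its activity in S phase, had 62.5 and 65.9 scaled CPM in the CuNZ@Gel libraries, against 46.9 and 43.8 in the Gel libraries (log2 change 0.49 ± 0.081, adjusted p = 1.78e-05). The large subunit gene Rrm1 had 153 and 146 scaled CPM in the CuNZ@Gel libraries, against 128 and 124 in the Gel libraries (log2 change 0.25 ± 0.066, adjusted p = 0.00225). For both subunits the CuNZ@Gel libraries lay above the Gel libraries, but Rrm1 was at -0.02 after the length and GC correction (adjusted p = 0.807), where Rrm2 remained raised (0.56). Tk1, which salvages thymidine, had 27.4 and 28.1 scaled CPM in the CuNZ@Gel libraries, against 51.2 and 47.4 in the Gel libraries (log2 change -0.81 ± 0.09, adjusted p = 9.51e-08). Tyms, which makes thymidylate, had 20.7 and 25.2 scaled CPM in the CuNZ@Gel libraries, against 39.1 and 32.6 in the Gel libraries (log2 change -0.62 ± 0.11, adjusted p = 5.41e-05). Dut, which clears dUTP, had 38.9 and 37.2 scaled CPM in the CuNZ@Gel libraries, against 51.8 and 52.3 in the Gel libraries (log2 change -0.44 ± 0.084, adjusted p = 9.18e-05). These thymidylate genes were lower in both CuNZ@Gel libraries and stayed lowered with total reads only and with the length and GC correction. A pseudogene of Tyms was listed at 0.0785 to 0.254 scaled CPM, and how reads were shared with it is not given in the sources used here.

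Among histone handling genes, Chaf1b, a subunit of chromatin assembly factor 1, had 26.7 and 27.1 scaled CPM in the CuNZ@Gel libraries, against 34.8 and 37.1 in the Gel libraries (log2 change -0.40 ± 0.095, adjusted p = 7.95e-04). Its complex partner Chaf1a had 35.8 and 38.2 scaled CPM in the CuNZ@Gel libraries, against 32.0 and 32.0 in the Gel libraries and did not pass (log2 change 0.20 ± 0.091, adjusted p = 0.0565), but with total reads only it passed as raised (0.39), and it was at -0.08 after the length and GC correction. Chaf1a shares 4648 exonic bases with Ubxn6 on the opposite strand, and Ubxn6 reads cannot be told apart from its own where strand is not used. Slbp, which binds the stem-loop of histone mRNAs, had 59.6 and 66.7 scaled CPM in the CuNZ@Gel libraries, against 66.8 and 62.4 in the Gel libraries (log2 change -0.03 ± 0.081, adjusted p = 0.732), and its groups overlapped.

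Ratios of 2 genes within a library do not depend on library scaling, so the opposite directions were also read as ratios, for pairs chosen after the values were seen. Scaled CPM are not per length, so a ratio is compared only between libraries. The trend of the log2 change with transcript length and GC content was not removed from these ratios. Pole and Pold2, with transcripts of 7163 and 1646 bases, were at 0.01 and -0.80 after that correction, against 0.29 and -1.10 as deposited. Rrm2 and Tyms lay further apart after it, at 0.56 and -0.72 against 0.49 and -0.62. The Mcm4 to Mcm5 ratio was 1.32 and 1.17 in the CuNZ@Gel libraries, against 0.581 and 0.633 in the Gel libraries, 2.05-fold higher. Cdc6 to Cdt1 stood at 0.225 and 0.256 in CuNZ@Gel and at 0.0891 and 0.110 in Gel, 2.42-fold higher. Rrm2 to Tk1 gave 2.28 and 2.35 in CuNZ@Gel and 0.916 and 0.923 in Gel, 2.52-fold higher. In each of these pairs both CuNZ@Gel libraries had the higher ratio. Pole to Pold2 was 2.64 and 2.74 in CuNZ@Gel and 1.00 and 0.951 in Gel. Rfc4 to Rfc1 was 0.227 and 0.250 in CuNZ@Gel and 0.560 and 0.537 in Gel, and the ratio fell to 0.434 of its Gel value. With 2 libraries a group an exact two-sided permutation test cannot give a p below 0.333, so these ratios carry no test of their own. None of the pairs overlapped between the groups, but the pairs were chosen with these values known, so this is no support. Among single tested genes 83.2% did not overlap either.

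**Figure D3:**
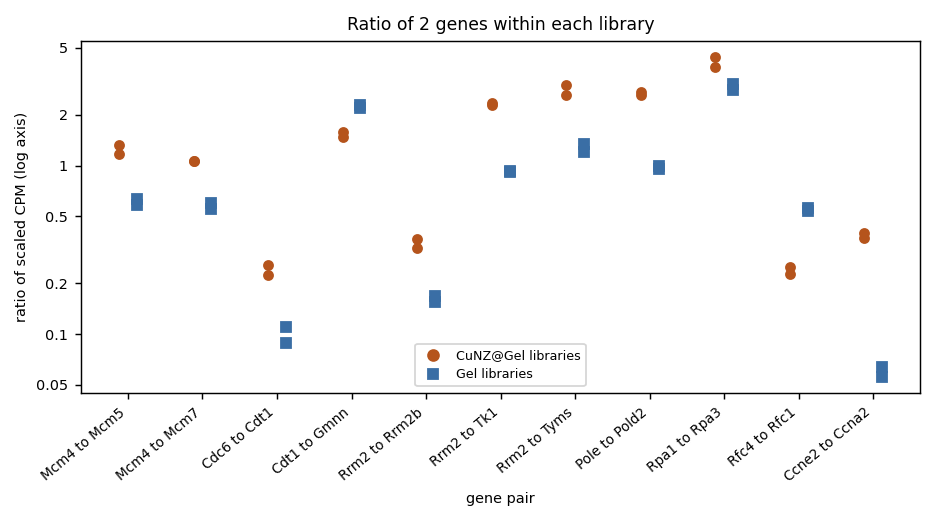
Ratio of the scaled CPM of 2 genes (y axis, log scale) for 11 pairs chosen after the values were seen, with 1 point per library, CuNZ@Gel as orange circles and Gel as blue squares. The groups do not overlap for any pair, which the choice of pairs made likely. The Ccne2 to Ccna2 ratio is farthest apart, at 0.369 and 0.396 in CuNZ@Gel and 0.0638 and 0.0559 in Gel.

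Other replisome and licensing factors, 35 genes outside the 49, were also mixed: 19 fell, 10 rose and 6 did not pass (median log2 change -0.26). These were 54.3% lowered and 28.6% raised, against 34.8% and 32.2% of all tested genes, so the raised share was near that of all genes. With total reads only 13 fell and 13 rose, against 24.7% lowered and 43.4% raised over all tested genes, and after the length and GC correction 16 fell and 6 rose. Rnaseh2a, which encodes the catalytic subunit of an RNase that removes RNA from DNA, had 16.4 and 16.1 scaled CPM in the CuNZ@Gel libraries, against 44.4 and 33.2 in the Gel libraries (log2 change -1.19 ± 0.12, adjusted p = 1.80e-08). The histone chaperone genes Ssrp1 and Asf1a fell as well (-0.71 and -1.03). Supt16, which encodes the partner of Ssrp1 and was named after its values were seen, rose by 0.23. It did not pass after the length and GC correction (0.04). Gmnn, the inhibitor of Cdt1, fell by 0.30 (adjusted p = 0.00397), and it did not pass after the length and GC correction (-0.06) or with total reads only (-0.12). The raised genes with the smallest p were Top1, the topoisomerase that relieves twist ahead of the fork, Clspn, the checkpoint mediator claspin, and Mcm9, a helicase of the MCM family that acts in repair. Top1 had 204 and 197 scaled CPM in the CuNZ@Gel libraries, against 99.98 and 104 in the Gel libraries (log2 change 0.97 ± 0.065, adjusted p = 3.03e-11). Clspn had 53.5 and 53.1 scaled CPM in the CuNZ@Gel libraries, against 27.2 and 27.3 in the Gel libraries (log2 change 0.94 ± 0.087, adjusted p = 5.88e-09). Mcm9 had 27.6 and 26.6 scaled CPM in the CuNZ@Gel libraries, against 11.7 and 11.0 in the Gel libraries (log2 change 1.19 ± 0.11, adjusted p = 1.07e-08). All 3 had CuNZ@Gel values far above the Gel values, with larger log2 changes than any of the 6 raised genes among the 49. Pold4, the fourth polymerase delta gene, chosen after its values were seen, fell like the other 3 (-1.13).

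Transcription factors and kinases that act upstream moved in both directions. Of 17 genes of the E2F, retinoblastoma and S-phase kinase list, 7 rose and 4 fell (median 0.08), or 41.2% and 23.5%, against 32.2% raised and 34.8% lowered over all tested genes. With total reads only 9 rose and 4 fell, where 43.4% of all tested genes were raised and 24.7% lowered, and after the length and GC correction 7 rose and 5 fell. Ccne2, cyclin E2, which drives entry into S phase, had 27.9 and 29.4 scaled CPM in the CuNZ@Gel libraries, against 9.78 and 8.72 in the Gel libraries (log2 change 1.54 ± 0.12, adjusted p = 3.35e-10). Rbl2, the pocket protein p130 of resting cells, had 54.9 and 48.4 scaled CPM in the CuNZ@Gel libraries, against 24.2 and 26.2 in the Gel libraries (log2 change 1.00 ± 0.095, adjusted p = 7.66e-09). E2f6, a repressor of the family, rose by 0.70 and E2f1, an activator, by 0.52 (adjusted p = 5.01e-06 and 8.47e-04). Ccna2, the cyclin of S and G2 phase, had 75.6 and 74.3 scaled CPM in the CuNZ@Gel libraries, against 153 and 156 in the Gel libraries (log2 change -1.04 ± 0.067, adjusted p = 1.91e-11). The lowered genes also held Tfdp2, a dimer partner of E2F proteins (-1.12), and E2f8, an atypical repressor (-0.66). Beside these stood Cdkn1a, the cyclin kinase inhibitor p21, at 2.14, and Mki67, the proliferation antigen Ki-67, at -0.89. Their part in the changes of the replication genes was not tested.

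Among 13 further deoxynucleotide and folate enzymes, 7 fell and 2 rose (53.8% and 15.4%, against 34.8% and 32.2% of all tested genes; median -0.30). Rrm2b, the alternative small subunit of ribonucleotide reductase and a known p53 target, had 171 and 204 scaled CPM in the CuNZ@Gel libraries, against 279 and 281 in the Gel libraries (log2 change -0.58 ± 0.072, adjusted p = 4.21e-07), so that it was lower while Rrm2 was higher. The Rrm2 to Rrm2b ratio was 0.366 and 0.323 in CuNZ@Gel and 0.168 and 0.156 in Gel. Nme2, a nucleoside diphosphate kinase, and Dtymk, which phosphorylates thymidylate, fell (-0.75 and -0.53). Samhd1, which breaks down deoxynucleotides, had 193 and 191 scaled CPM in the CuNZ@Gel libraries, against 148 and 142 in the Gel libraries (log2 change 0.40 ± 0.063, adjusted p = 1.07e-05). Cmpk1, a pyrimidine nucleotide kinase, rose by 0.31. Of 10 replication checkpoint genes, 3 fell and 2 rose and 5 did not pass, where 67.1% of all tested genes passed. Rad9a, of the checkpoint clamp, had 8.57 and 9.2 scaled CPM in the CuNZ@Gel libraries, against 16.6 and 17.4 in the Gel libraries (log2 change -0.86 ± 0.13, adjusted p = 4.93e-06). Wee1 and Rad1 fell as well (-0.44 and -0.41), and the kinase gene Atr and the phosphatase gene Cdc25a were at 0.27 and 0.32. Neither Wee1 nor Rad1 passed with total reads only (-0.26 and -0.24). Rad1 also did not pass without Gel replicate 2, Atr without CuNZ@Gel replicate 1, and Cdc25a without CuNZ@Gel replicate 2 or Gel replicate 2. After the length and GC correction neither Atr nor Cdc25a passed, and Atr turned direction (-0.15 and 0.23).

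**Figure D4:**
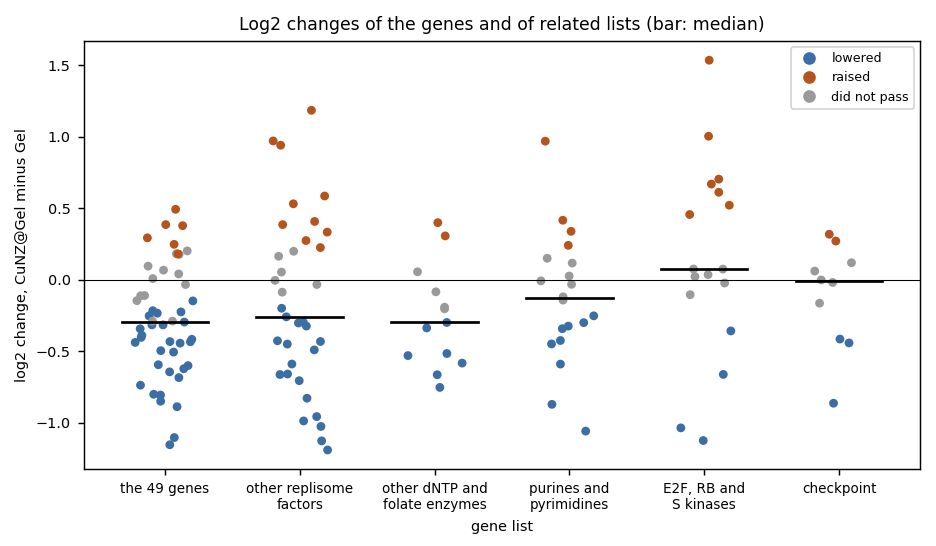
Log2 change, CuNZ@Gel minus Gel (y axis), of every tested gene of the 49 and of 5 related lists (x axis), with 1 point per gene coloured by its limma call and a black bar at the list's median. The medians of the 49 genes (-0.30) and of the other replisome factors (-0.26) lie below 0, and that of the E2F and retinoblastoma list (0.08) lies just above it.

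Among called genes, the direction changed under the treatments of the library values shown here for Pcna (total reads only) and Rrm1 (length and GC correction). Transcript length is a property that moved with the log2 change across all tested genes (Pearson r of 0.274 across genes, which are not independent replicates). The 49 genes had a median transcript length of 3069 bases, against 3302 for all tested genes with a transcript. After a correction for length and GC content 30 of the 49 genes were lowered and 4 raised (35.6% and 30.6% of all genes tested there), with a median of -0.27. The 4 raised genes were Rrm2, Mcm4, Fen1 and Rpa2.

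**Figure D5:**
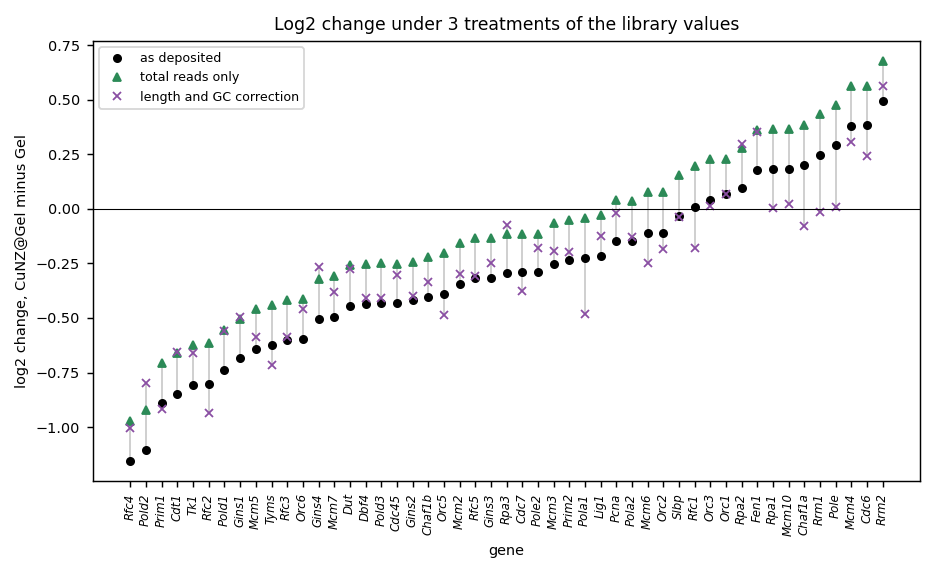
Log2 change, CuNZ@Gel minus Gel (y axis), of the 49 genes in order of their value as deposited (x axis; black circles), with libraries scaled by total reads only (green triangles) and with transcript length and GC content corrected for (purple crosses). Scaling by total reads shifts every gene upward, and Pcna is at -0.15 as deposited and 0.04 with total reads only, while Rfc4 is at -1.15, -0.97 and -1.005.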

How the data were processed

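Per the labels, total RNA (TaKaRa RNAiso Plus) went into CORALL RNA-seq V2 libraries. The submitters' processing notes name GATK, STAR, Salmon and fastp, and build GRCm39. Not given in the sources used here are versions, roles, annotation, strand use and normalization. The deposited files hold 1 log2 value per gene and library. From the values, this is log2(x + 1) where x is CPM over 1 factor per library (0.936 to 1.07). Of values of at most 1, 92.8% to 93.5% were whole multiples of 1 read within 0.02 reads, which gave the reads behind each value. A level of 3 reads was 0.189 to 0.234 scaled CPM, counting error only.

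A gene was tested where 2 or more libraries reached 1 scaled CPM. The test was that of limma 3.58.1 (R 4.3.3), with a variance trend and the group as the single term, and adjusted by Benjamini-Hochberg over all tested genes at 0.05. The log2(scaled CPM + 1) scale understates the change of low genes. The fit was also run on simulated counts in which few genes changed, with no further library factor and no length trend. That run therefore does not check how the calls made here depend on scaling or transcript length. The 49 genes, the related lists and the tests were chosen with earlier results of these data known. Up to 4 called genes of each role with the smallest p, and every gene called against its role, are given by library, and of each related list up to 3 genes in each direction plus anchors. Adss and Ctps were matched by RefSeq synonyms. For the correction, 94.0% of tested genes had a longest GENCODE vM21 transcript. That annotation is on another build than the files, so no coordinates were joined. Each library's deviation from the gene mean was fitted on natural splines (5 degrees of freedom) of its log2 length and GC content and the fit removed.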

Additional observations from a re-analysis of the deposited data

How the results depend on the processing

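The count of all called genes (7770), of lowered genes among the 49 (30) and of raised ones (6) stayed within 1.5 times under limma-voom on the recovered reads, relative log expression size factors, a pseudocount of 0.1, no filter, a filter at 5 scaled CPM and the length and GC correction. Set against a minimum fold of 1.5 they were 1955, 5 and 0, and with total reads only 12 of the 49 were raised. The median log2 change of the 49 (-0.30) was -0.31 with limma-voom, -0.31 with a pseudocount of 0.1, -0.27 with relative log expression factors, -0.12 with total reads only and -0.27 with the length and GC correction, without or with the replicate block. Leaving out each library in turn gave a median of -0.36 to -0.28, with 26 to 28 of the 49 lowered, 3 to 6 raised and 6616 to 6966 genes called in all. Without Gel replicate 1, 3 of the 49 were raised, and a group left with 1 library is assumed to vary like the other. Of the 36 calls, 25 held in each of these fits. Of the 36 called genes, the direction reversed for Pcna with total reads only (0.041) and for Rrm1 with the length and GC correction, without or with the block (-0.016). Among the 13 that did not pass it reversed with total reads only for Mcm6 (0.076), Orc2 (0.075), Pola2 (0.037) and Slbp (0.15), and with that correction, without or with the block, for Rfc1 (-0.18) and Chaf1a (-0.079). With 1 library left out, values of both signs were given by Orc1 (-0.012 to 0.147), Orc3 (-0.006 to 0.088), Rfc1 (-0.041 to 0.058), Rpa2 (-0.003 to 0.194) and Slbp (-0.113 to 0.047). The cause was not tested.

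Same-numbered libraries share a number only: their deviations from the group means had a correlation of -0.116 across genes. With the replicate number as a block 27 of the 49 were lowered, 5 raised and 7489 genes called in all. A crossed block, added after the data were seen, called 8370 genes. Tests on counts (edgeR and DESeq2) were planned but not run, since the files hold log2 values.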

Other observations

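Ribonucleotide synthesis genes, which feed both RNA and DNA, also moved in both directions. Of 20 genes of purine and pyrimidine synthesis, 9 fell, 4 rose and 7 did not pass, with a median log2 change of -0.13. The 65.0% called compare with 67.1% of all tested genes. With total reads only 5 fell and 8 rose (median 0.06), near the 24.7% lowered and 43.4% raised over all tested genes. Paics, a bifunctional enzyme of purine synthesis, had 193 and 187 scaled CPM in the CuNZ@Gel libraries, against 380.1 and 414 in the Gel libraries (log2 change -1.06 ± 0.063, adjusted p = 4.45e-12). Impdh2, which commits purines to guanine nucleotides, had 119 and 128 scaled CPM in the CuNZ@Gel libraries, against 230.2 and 222 in the Gel libraries (log2 change -0.87 ± 0.065, adjusted p = 1.77e-10). Prps1, which makes the ribose phosphate donor, fell by 0.45 on the log2 scale. These 3 genes were lower in both CuNZ@Gel libraries than in either Gel library. Ctps2, a CTP synthase, had 61.2 and 61.6 scaled CPM in the CuNZ@Gel libraries, against 29.0 and 32.8 in the Gel libraries (log2 change 0.97 ± 0.088, adjusted p = 4.03e-09). Adss, which commits purines to adenine nucleotides, had 192 and 189 scaled CPM in the CuNZ@Gel libraries, against 142 and 144 in the Gel libraries (log2 change 0.42 ± 0.063, adjusted p = 5.77e-06). Both also rose with total reads only and with the length and GC correction. Gart, a trifunctional purine enzyme, was at 0.24 (adjusted p = 0.0116), and it did not pass without CuNZ@Gel replicate 2 or Gel replicate 2.

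Of the 10 macrophage markers 6 rose and 3 fell (60% and 30%, against 32.2% and 34.8% of all tested genes). Itgam, the integrin alpha M chain, rose by 1.89 and Tyrobp, a signalling adaptor, was at -0.82, both on the log2 scale. Of the list of other cell type markers Pecam1 alone passed the expression filter, through the CuNZ@Gel libraries only. It had 2.21 and 1.4 scaled CPM in the CuNZ@Gel libraries, against 0.0725 and 0.0777 in the Gel libraries. Those Gel values were 1 read each, below the level of 3 reads.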
